A study of Mus musculus with 12 samples.

Results

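The genes described here are the collagens other than type IV. They are the protein-coding rows of the count table whose symbol has the form of a collagen alpha chain, with the type IV chains left out. The rule found 38 genes among 39171 rows, and 6 type IV chains stood beside them for comparison. Kidney RNA had been sequenced from 12 mice, 4 in each of 3 groups. The wild-type mice were labelled healthy. The other 2 groups were both homozygous for the M743T knock-in of GNE, the enzyme that starts sialic acid synthesis, and were separated by phenotype into mice labelled healthy and mice labelled sick. No agent is named for any group, and the sources used here do not give age, sex, what sick means or whether the mice were littermates. P-values therefore measure the spread between these mice, and the sick and healthy knock-in groups were formed by their state of health, not assigned to it.

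A collagen is built from 3 alpha chains wound into a triple helix, and the families differ in what these helices build. Fibrillar collagens such as types I and III pack into the banded fibrils that give tissue its tensile strength. FACIT collagens sit on the surface of those fibrils, type VI forms beaded filaments between fibrils and cells, and types VIII and X form network sheets. Type VII makes the anchoring fibrils below epithelia, the transmembrane collagens span the plasma membrane, and the multiplexins, types XV and XVIII, lie at basement membranes. In the kidney the interstitium between tubules normally holds little fibrillar collagen, and its build-up is the defining feature of renal fibrosis.

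The libraries held 10605546 to 22633684 counts. All 4 proximal tubule markers were measured, with a summed level of 8268 to 10803 CPM (counts-per-million of the effective library size) in wild-type, 8764 to 12881 in healthy knock-in and 910.5 to 1662 in sick kidneys. Levels here come from whole kidney RNA, so fewer cells of a type and less RNA per cell cannot be told apart. The 12 markers of fibroblasts and myofibroblasts, the cells known to make most interstitial collagen, summed to 257 to 321, 283 to 469 and 988 to 1874 CPM in the same order, and 11 rose and 1, Meox1, fell in sick against wild-type mice. The 5 macrophage markers all rose, and summed to 96.0 to 176 CPM in wild-type and 523 to 1140.4 in sick mice. Of all genes tested, 25.9% were called higher and 25% lower in sick against wild-type mice, by the test described below. The adipose markers ranged up to 1627 CPM from a lowest 48.1 in the sick group, against at most 126 in wild-type mice, and the urothelial markers 202 against 5.13, in both cases in sick mouse 4. The part of these cells in the collagen values was not tested.

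Sick kidneys held far more collagen RNA than wild-type kidneys. The 38 genes together took 830.2 to 1102 CPM in the wild-type mice, 877 to 1661 in the healthy knock-in mice and 4157 to 8226 in the sick mice, so the sick group did not overlap with the others. As a share of all counts these sums were 0.0696 to 0.0992%, 0.0704 to 0.155% and 0.514 to 1.14%. Types I and III alone, with no adjustment for exon length, made up 25.01 to 38.9% of the collagen counts in wild-type, 21.3 to 41.7% in healthy knock-in and 50.03 to 60.8% in sick kidneys. The highest sum in a sick mouse was that of mouse 1 and the highest in a healthy knock-in mouse that of mouse 2, which recur below.

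Of the 38 genes, 23 were called higher in sick than in wild-type mice, 3 lower and 5 neither, and 7 had too few counts to be tested. Calls came from edgeR's quasi-likelihood F test at a threshold of 0.05 on p-values adjusted by Benjamini-Hochberg across the 15589 genes that entered it. The background was broad, since 25.9% of all genes tested were called higher in sick than in wild-type mice and 25% lower. The levels of 25 tested collagens did not overlap between the sick and wild-type mice, as against 43.2% of all genes. Between healthy knock-in and wild-type mice no collagen was called, in a comparison that called 0.314% of all genes. Between sick and healthy knock-in mice 23 collagens were called higher, against 24.5% of all genes, and 4 lower, against 21.9%, and 22 did not overlap, against 47.2%. The comparisons of sick with wild-type and with healthy knock-in mice share the sick mice, and the comparison of the healthy groups shares its mice with both. With library totals as the only scaling the median log2 fold change of all genes moved from 0.02 to 0.61 in sick against wild-type mice, with 8420 genes higher and 1605 lower in place of 4032 and 3901, and 26 collagens were higher and 3 lower. Without sick mouse 1, or without sick mouse 4, 22 collagens were higher and 3 lower in sick than in wild-type mice, and 23 and 3 without the second mouse of both other groups, an alternative chosen after seeing the data. Against healthy knock-in mice these counts were 22 and 3, 21 and 3, and 25 and 3.

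The low-count filter bears on these counts. Col11a1, Col10a1, Col9a3 and Col17a1 reached the filter's minimum of 0.548 CPM only through the sick mice, and Col19a1 only through the others, so their calls were favoured by how they came to be tested. Among the 26 genes that reached it both in the sick mice and in the others, 19 were called higher and 2 lower in sick than in wild-type mice. With no filter, all 38 genes entered the fit and 24 were called higher and 3 lower, Col28a1 being the addition. Among all 22687 genes in that fit 4167 were called higher and 3877 lower. The median log2 fold change of all 38 was then 1.92, beside 0.06 for all genes.

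**Figure D1:**
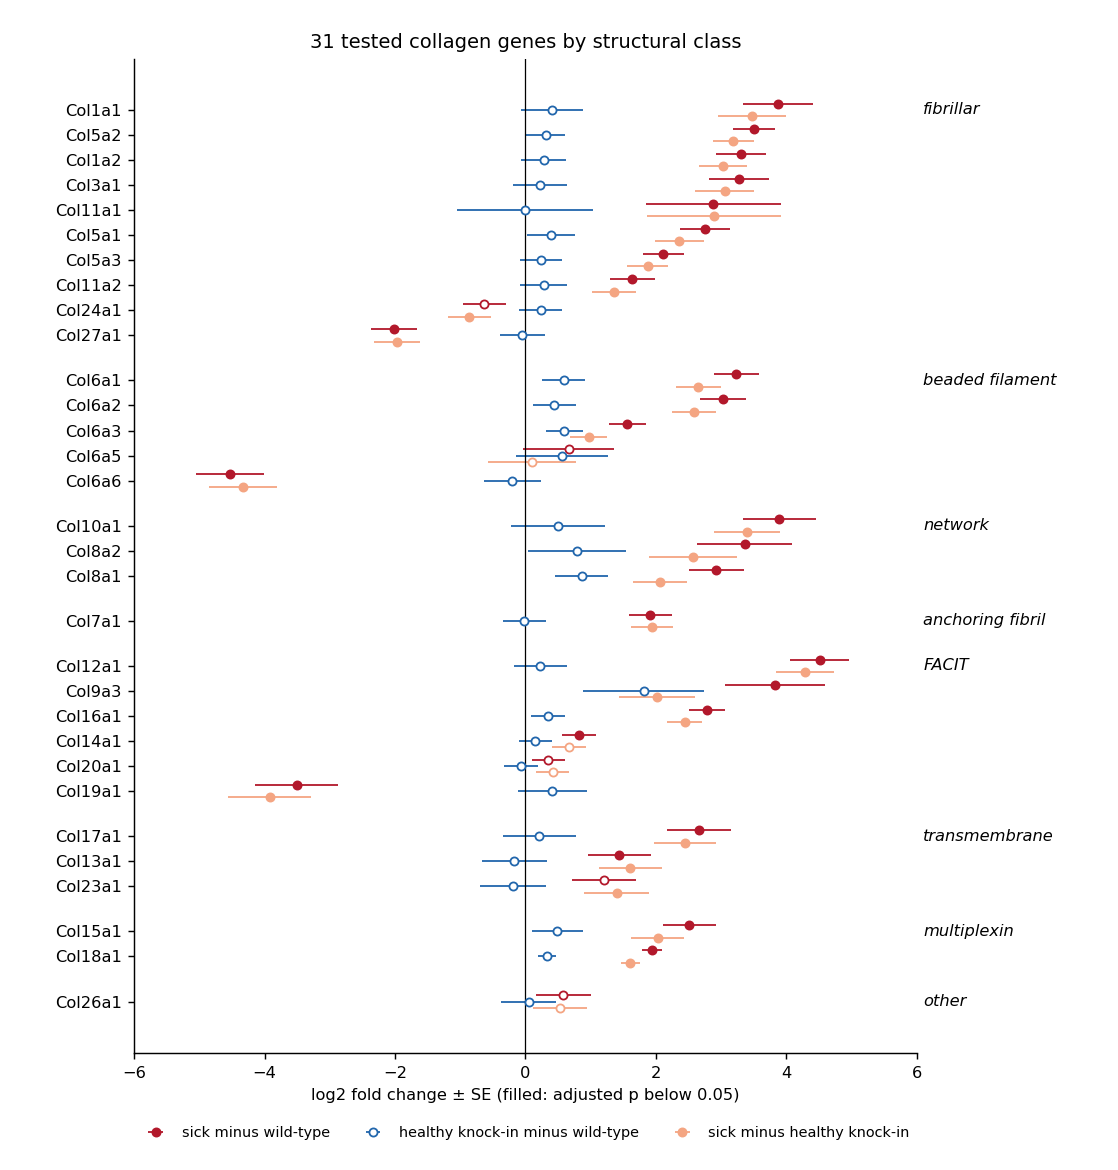
log2 fold changes with standard errors of the 31 tested collagens, grouped by structural class, for sick against wild-type, healthy knock-in against wild-type and sick against healthy knock-in mice (4 mice a group); filled points passed an adjusted p of 0.05. The healthy knock-in points lie within 1 of 0, save that of Col9a3, and none is filled, while 23 sick against wild-type points are filled to the right of 0 and 3 to the left.

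The fibrillar class moved mostly upward. Of its 11 genes 8 rose and 1 fell in sick against wild-type mice, 1 was tested and not called and 1, Col2a1 of cartilage, was not tested. Their median log2 fold change was 2.73 with all 11 in the fit. The major chains of the interstitial fibril rose together. Col1a1 (chr11:94936224-94953042, plus strand, GRCm38), the alpha-1 chain of type I collagen, stood at 69.98, 80.2, 36.1 and 30.7 CPM in the wild-type mice, 49.8, 144, 66.6 and 26.2 in the healthy knock-in mice and 1208, 513, 545 and 917 in the sick mice. Each sick mouse lay at least at 513 CPM and no other mouse above 144, a log2 fold change of 3.87 ± 0.53 (SE) against wild-type (adjusted p = 8.02e-05). Col1a2 (chr6:4504814-4541544, plus strand), the alpha-2 chain of the same trimer, was at 128, 144, 89.5 and 90.0 CPM in the wild-type mice, 96.8, 248, 126 and 75.8 in the healthy knock-in mice and 1652, 848, 865 and 1101 in the sick mice. The sick mice again lay above all others, with a log2 fold change of 3.31 ± 0.38 (adjusted p = 2.03e-05).

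Type III collagen, a homotrimer of the Col3a1 product that forms thin fibrils with type I, is made by the same interstitial cells. Col3a1 (chr1:45311538-45349706, plus strand) measured 166, 157, 95.4 and 90.2 CPM in the wild-type mice, 90.4, 299, 118 and 84.8 in the healthy knock-in mice and 1881, 719, 923 and 1404 in the sick mice. Its log2 fold change was 3.28 ± 0.46 (adjusted p = 8.66e-05), and the lowest sick mouse exceeded the highest other mouse, healthy knock-in mouse 2. Without that mouse the rise against the healthy knock-in group was 3.65 for Col3a1 and 4.06 for Col1a1 on the log2 scale, in place of 3.06 and 3.47. Col5a2 (chr1:45374321-45503282, minus strand) encodes a type V chain, a minor component that starts fibril assembly, and lies 24.6 kb from Col3a1 on the opposite strand. It was at 13.8, 14.5, 11.4 and 14.4 CPM in the wild-type mice, 10.7, 24.8, 14.7 and 16.8 in the healthy knock-in mice and 255, 123, 94.9 and 139 in the sick mice, a log2 fold change of 3.50 ± 0.32 (adjusted p = 5.45e-06) with no overlap. The other type V chains, Col5a1 and Col5a3, rose by 2.75 and 2.12 on the log2 scale. Col5a1 was at 14.5 to 23.2 CPM in wild-type and 74.6 to 186 in sick mice, and Col5a3 at 2.10 to 6.07 CPM in wild-type and 12.4 to 21.2 in sick mice.

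The type XI chains, known from cartilage fibrils, were at low levels. Col11a2 was at 0.472 to 1.501 CPM in wild-type and 2.61 to 2.95 in sick mice, a log2 fold change of 1.64 ± 0.35 (adjusted p = 0.00173). Col11a1 was at 7.44 to 15.3 CPM in sick mice, above all other mice, and the wild-type and healthy knock-in groups each held 1 mouse far above the rest, wild-type mouse 2 at 4.48 and healthy knock-in mouse 2 at 5.56. Its log2 fold change against wild-type was 2.88 ± 1.03 (adjusted p = 0.0332) with that mouse and 4.47 without it, and against healthy knock-in mice 2.89 ± 1.02 with mouse 2 and 5.97 without. The call against wild-type was lost when any of wild-type mice 1, 3 or 4 or sick mice 1, 2 or 4 was left out, with adjusted p of 0.0523 to 0.0825, and that against healthy knock-in mice when any of its mice 1, 3 or 4 or sick mice 1, 2 or 4 was left out, with adjusted p of 0.0539 to 0.0811.

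One fibrillar collagen went the other way. Col27a1 (chr4:63214004-63334991, plus strand) encodes a fibrillar chain with a shortened helix known from cartilage, and was at 87.6, 61.2, 146 and 71.2 CPM in the wild-type mice, 85.02, 76.9, 40.6 and 151 in the healthy knock-in mice and 22.4, 18.7, 23.0 and 26.3 in the sick mice. All 4 sick mice lay below every other mouse, with a log2 fold change of -2.02 ± 0.36 against wild-type (adjusted p = 5.06e-04) and -1.97 ± 0.36 against healthy knock-in mice (adjusted p = 7.04e-04). Col24a1 (chr3:145292472-145552011, plus strand), a close relative in structure, was low throughout, at 1.70, 1.71, 1.56 and 1.30 CPM in the wild-type mice, 1.97, 2.20, 0.973 and 2.21 in the healthy knock-in mice and 0.811, 1.33, 0.614 and 1.23 in the sick mice. The groups overlapped, and Col24a1 was called lower against the healthy knock-in mice, at -0.86 ± 0.32 (adjusted p = 0.0451), and not against wild-type, at -0.63 ± 0.33 (adjusted p = 0.131). The former call was lost with no filter (adjusted p = 0.0658), with library totals as the only scaling (0.497), with upper-quartile scaling (0.0767), with the 8 libraries alone (0.0699), with the second mice of both other groups left out (0.103) and without any of healthy knock-in mice 1, 2 or 4 or sick mice 1, 3 or 4 (0.0501 to 0.114).

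**Figure D2:**
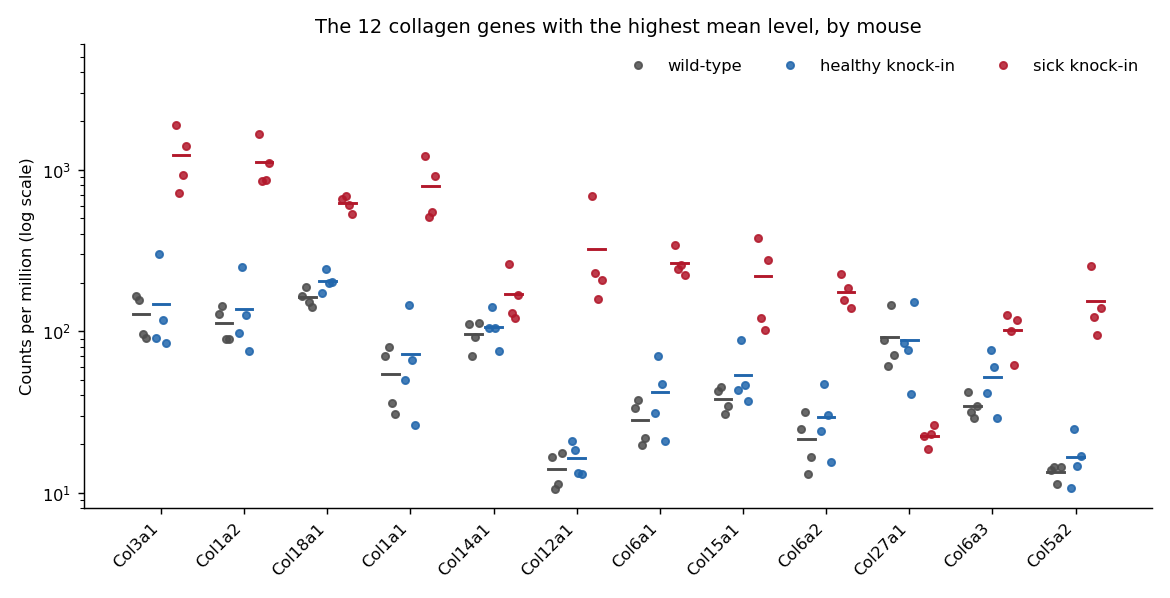
CPM on a log axis for each of the 4 mice a group (points) and the group mean (bars) for the 12 collagens with the highest mean level over all mice. Sick mice lie above wild-type mice for 11 of the 12, with no overlap, and Col27a1 lies below, at 18.7 to 26.3 CPM in sick mice. The mean that ranked the genes includes the sick mice, which favours genes that rose. Of all genes tested, 43.2% did not overlap between sick and wild-type mice.

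Among the beaded filament genes the 3 chains of classical type VI collagen rose, while of the 3 alternative chains Col6a6 fell, Col6a5 was not called and Col6a4 was not tested. Type VI surrounds cells in the interstitium and links them to fibrils. Col6a1 (chr10:76708792-76726168, minus strand) was at 33.5, 37.5, 19.8 and 21.9 CPM in the wild-type mice, 31.3, 70.02, 46.9 and 20.8 in the healthy knock-in mice and 341, 241, 258 and 222 in the sick mice, a log2 fold change of 3.24 ± 0.35 (adjusted p = 1.53e-05). Col6a2 (chr10:76595762-76623630, minus strand), 85.2 kb away on the same strand, was at 24.8, 31.7, 13.1 and 16.6 CPM in the wild-type mice, 24.1, 47.1, 30.4 and 15.6 in the healthy knock-in mice and 225, 156, 185 and 139 in the sick mice, a log2 fold change of 3.03 ± 0.35 (adjusted p = 2.22e-05). For both genes the sick mice lay above every other mouse. Col6a3 (chr1:90765923-90843971, minus strand), the largest of the 3, was at 42.3, 31.5, 29.2 and 34.3 CPM in the wild-type mice, 41.6, 76.2, 60.2 and 29.0 in the healthy knock-in mice and 126, 99.9, 62.1 and 118 in the sick mice. Its log2 fold change was 1.56 ± 0.29 against wild-type (adjusted p = 6.48e-04) and 0.97 ± 0.28 against healthy knock-in mice (adjusted p = 0.0131), and sick mouse 3 lay below healthy knock-in mouse 2, so the sick and healthy knock-in groups overlapped.

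Col6a6, Col6a5 and Col6a4 encode chains that can take the place of the Col6a3 product, and lie in a row on the minus strand of chromosome 9 with gaps of 27.9 and 28.8 kb. Col6a6 (chr9:105687809-105828160, minus strand) was at 127, 38.7, 92.1 and 86.2 CPM in the wild-type mice, 146, 67.1, 47.7 and 39.0 in the healthy knock-in mice and 3.24, 4.08, 1.61 and 5.70 in the sick mice. It fell in every sick mouse to below all others, by 23.1-fold against wild-type (log2 fold change -4.53 ± 0.52, adjusted p = 2.22e-05), the steepest fall among the tested collagens. Its neighbour Col6a5 overlapped in all groups, at 0.236 to 3.52 CPM in wild-type, 0.916 to 3.52 in healthy knock-in and 0.770 to 3.95 in sick mice (log2 fold change 0.66 ± 0.70 against wild-type, adjusted p = 0.454). Col6a4 was not tested: it stayed at or below 1.28 CPM in 11 mice and reached 4.64 in healthy knock-in mouse 3, where it had 81 counts.

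All 3 network chains rose, and their median log2 fold change was 3.34 with no filter. Col8a1 and Col8a2 encode the chains of type VIII, a short-chain collagen of vessel walls and remodelling tissue, and Col10a1 the type X chain known from growth plate cartilage. Col8a1 was at 9.43 to 13.3 CPM in wild-type and 48.0 to 165 in sick mice, a log2 fold change of 2.93 ± 0.43 (adjusted p = 1.19e-04), and at 11.96 to 37.0 CPM in healthy knock-in mice. Col8a2 (chr4:126286793-126314330, plus strand) was at 0.971, 0.589, 0.173 and 0.587 CPM in the wild-type mice, 1.46, 1.47, 0.858 and 0.284 in the healthy knock-in mice and 12.8, 1.26, 3.07 and 7.09 in the sick mice. Its log2 fold change was 3.36 ± 0.73 (adjusted p = 0.00195), or 2.68 without sick mouse 1. Sick mouse 2 lay below 2 healthy knock-in mice, and the log2 fold change against that group was 2.57 ± 0.67 (adjusted p = 0.00754), or 1.89 without sick mouse 1. Col10a1 (chr10:34389981-34397085, plus strand) was barely detected outside the sick group, at 0.0809, 0.118, 0.173 and 0 CPM in the wild-type mice, 0.191, 0.157, 0.0572 and 0.114 in the healthy knock-in mice and 2.23, 0.996, 0.998 and 1.44 in the sick mice. The wild-type mice together held 5 Col10a1 counts and the sick mice 126, with a log2 fold change of 3.89 ± 0.56 (adjusted p = 1.12e-04). Of the 9 cartilage and bone markers 2 were tested, and both, Sox9 and Runx2, rose, from 1.31 ± 0.271 to 16.7 ± 6.18 and from 4.02 ± 0.956 to 9.04 ± 3.08 CPM (SD, n = 4). All 9 summed to 4.19 to 6.59 CPM in wild-type and 17.0 to 39.2 in sick mice, most of it from Sox9 and Runx2. Acan, Matn3, Ibsp, Bglap, Dmp1 and Sp7 were each below 1 CPM in every mouse. Comp, also not tested, was at 0 to 0.522 CPM in wild-type and 0.230 to 2.26 in sick mice. Of all genes tested, 25.9% were called higher in sick against wild-type mice, and which cells held the Sox9 and Runx2 RNA was not tested. Col7a1, the anchoring fibril chain, was at 2.43 to 3.18 CPM in wild-type and 6.32 to 15.6 in sick mice, a rise of 1.92 ± 0.33 on the log2 scale (adjusted p = 3.85e-04).

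The FACIT class held the largest rise among the tested collagens, that of Col12a1, and 1 of the falls. Of its 9 genes 4 rose and 1 fell in sick against wild-type mice, 1 was tested and not called and 3, Col9a1, Col9a2 and Col22a1, were not tested. Col12a1 (chr9:79598991-79718831, minus strand), whose product coats type I fibrils in tissues under tension, was at 16.7, 10.6, 11.4 and 17.7 CPM in the wild-type mice, 21.0, 18.4, 13.3 and 13.1 in the healthy knock-in mice and 687, 228, 159 and 209 in the sick mice. It rose 22.8-fold, a log2 fold change of 4.51 ± 0.45 (adjusted p = 9.83e-06), with no overlap. Sick mouse 1 stood apart, and without it the log2 fold change was 3.82 against wild-type and 3.59, in place of 4.28, against healthy knock-in mice. Col14a1 (chr15:55307750-55520803, plus strand), a close relative of Col12a1 that limits fibril diameter, was at 110.3, 69.9, 91.4 and 113 CPM in the wild-type mice, 105, 141, 105 and 75.5 in the healthy knock-in mice and 262, 130.03, 120.1 and 167 in the sick mice. Its rise against wild-type was 0.82 ± 0.26 (adjusted p = 0.0187), lost without wild-type mouse 2 (0.0503) or sick mouse 1 (0.0717), and against healthy knock-in mice it was 0.67 ± 0.26 with overlapping groups (adjusted p = 0.0503; 0.0358 by DESeq2 and 0.0313 without healthy knock-in mouse 2).

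Col16a1, a FACIT of connective tissue and vessel walls, was at 7.37 to 11.3 CPM in wild-type and 43.9 to 92.8 in sick mice, a rise of 2.79 ± 0.28 on the log2 scale (adjusted p = 8.90e-06). Col19a1 (chr1:24261890-24587472, minus strand), a FACIT of basement membrane zones, fell. It was at 3.88, 0.943, 4.77 and 8.16 CPM in the wild-type mice, 7.12, 2.83, 5.61 and 8.01 in the healthy knock-in mice and 0.527, 0.299, 0.0767 and 0.565 in the sick mice, a log2 fold change of -3.51 ± 0.63 (adjusted p = 5.72e-04) with every sick mouse below every other mouse. Col9a3 (chr2:180597790-180622189, plus strand), a type IX chain of cartilage, was called higher at very low levels of 0.162, 0, 0 and 0 CPM in the wild-type mice, 0.254, 0.105, 0.0572 and 0.170 in the healthy knock-in mice and 0.892, 0.465, 0.537 and 0.514 in the sick mice. The wild-type mice held 2 Col9a3 counts in all, in wild-type mouse 1, and the sick mice 53. Its fitted fold change depends on the prior count and on that mouse. Col20a1 was at 2.53 to 3.47 CPM in wild-type and 3.45 to 3.91 in sick mice (log2 fold change 0.35 ± 0.26, adjusted p = 0.272).

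**Figure D3:**
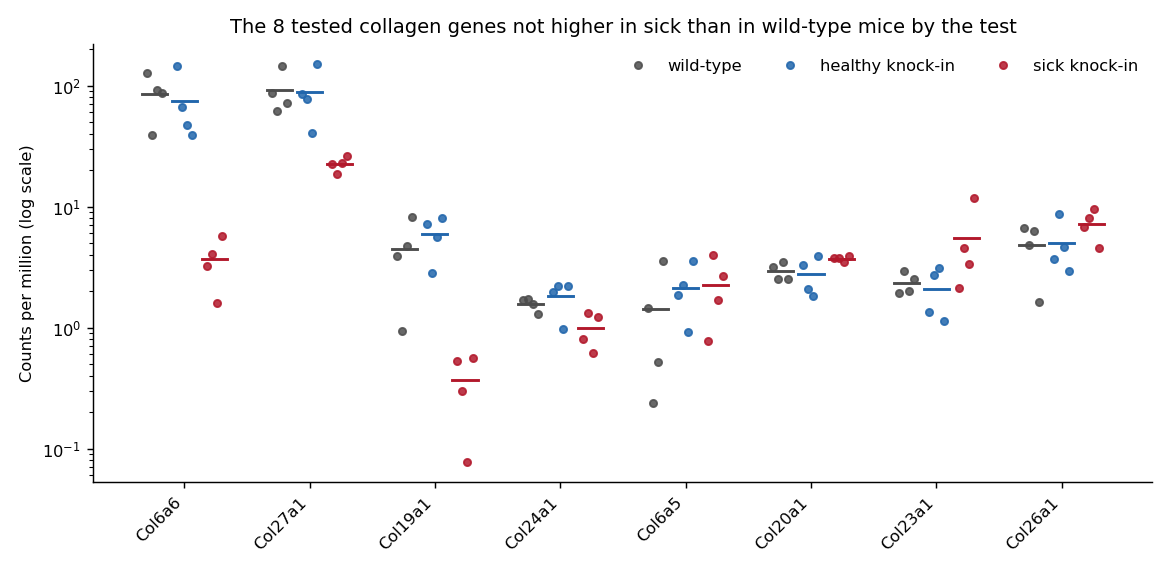
CPM on a log axis by mouse (points; bars are group means) for the 8 tested collagens that were not called higher in sick than in wild-type mice. Col6a6, Col27a1 and Col19a1 are lower in all 4 sick mice than in any other mouse, and the groups overlap for the other 5.

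Promoter sequence is shown for members that moved in opposite directions, to let their letters be compared: Col3a1 and Col8a1, which rose, and Col6a6, Col27a1 and Col19a1, which fell. They were chosen after their values were seen. Each is 150 bases from the RefSeq promoter table (GRCm38.p6), 5′ to 3′ on the gene's strand, the nearest stretch before the RefSeq start with no annotated exon in it. The Col27a1 stretch lies inside the longer gene model of GENCODE, outside its exons. Capitals mark, on either strand, the TATA motif TATAA, the CCAAT box and the GC box GGGCGG.
Col3a1 (chr1:45311388-45311537, plus strand): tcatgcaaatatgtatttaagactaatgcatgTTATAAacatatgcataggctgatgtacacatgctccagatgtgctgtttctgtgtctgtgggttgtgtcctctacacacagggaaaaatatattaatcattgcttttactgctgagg
Col8a1 (chr16:57754738-57754887, minus strand): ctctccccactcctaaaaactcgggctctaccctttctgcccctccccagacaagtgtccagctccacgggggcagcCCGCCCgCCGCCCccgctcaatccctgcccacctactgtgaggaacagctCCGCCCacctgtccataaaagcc
Col6a6 (chr9:105828161-105828310, minus strand): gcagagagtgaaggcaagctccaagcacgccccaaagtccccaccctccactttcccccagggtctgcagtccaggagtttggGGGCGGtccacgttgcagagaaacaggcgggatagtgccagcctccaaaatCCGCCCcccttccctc
Col27a1 (chr4:63215262-63215411, plus strand): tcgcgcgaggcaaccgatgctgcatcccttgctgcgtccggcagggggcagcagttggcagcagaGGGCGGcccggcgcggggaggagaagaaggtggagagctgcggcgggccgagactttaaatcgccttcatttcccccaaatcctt
Col19a1 (chr1:24587473-24587622, minus strand): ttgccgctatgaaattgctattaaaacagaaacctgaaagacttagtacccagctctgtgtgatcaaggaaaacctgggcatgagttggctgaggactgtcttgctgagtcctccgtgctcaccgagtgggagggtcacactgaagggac

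The stretch of Col3a1 held TATAA on both strands, overlapping, and that of Col8a1 3 copies of GGGCGG on the opposite strand. Col6a6 held 2 copies of GGGCGG, 1 on each strand, Col27a1 1 copy, and Col19a1 none of the 3 motifs. In the 250 bases before the start, GGGCGG was present on either strand in 19 of 33 promoters of 30 collagen genes in the table (57.6%) and in 32.7% of all 32851 promoters. CCAAT was present in 30.3% of the collagen promoters beside 33.8% of all, and TATAA in 18.2% beside 22.8%. A match is a description of the letters and shows no binding.

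Of 4 transmembrane genes 2 rose in sick against wild-type mice, 1 was tested and not called and Col25a1 was not tested. Col13a1, found at cell-matrix adhesions, was at 0.783 to 2.95 CPM in wild-type and 1.54 to 7.98 in sick mice with overlap (log2 fold change 1.44 ± 0.48, adjusted p = 0.0242), and lost its call without wild-type mouse 4, sick mouse 2 or sick mouse 3 (0.0624 to 0.0730). Col17a1, the hemidesmosome collagen of stratified epithelia, rose, at 0.0809 to 0.391 CPM in wild-type and 0.998 to 3.60 in sick mice (log2 fold change 2.66 ± 0.50, adjusted p = 7.35e-04). Col23a1 was highest in sick mouse 4, at 11.9 CPM, against 2.11 to 4.58 in the other sick mice and 1.94 to 2.95 in wild-type mice. Its log2 fold change was 1.21 ± 0.49 against wild-type (adjusted p = 0.0567) and 1.40 ± 0.49 against healthy knock-in mice (adjusted p = 0.0338), which without sick mouse 4 were 0.50 and, with an adjusted p of 0.174, 0.69. The call against healthy knock-in mice was also lost without mouse 1 or mouse 4 of that group (adjusted p = 0.0910 and 0.0907), and DESeq2 called the gene against wild-type (adjusted p = 0.0356). Sick mouse 4 also had the highest Col17a1, at 3.60 CPM, and the highest summed urothelial and adipose markers. The share of these markers in the transmembrane values was not tested.

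Both multiplexins rose. Col18a1 (chr10:77052178-77166548, minus strand), whose product is a heparan sulfate proteoglycan of basement membranes and the source of endostatin, was at 166, 187, 153 and 141 CPM in the wild-type mice, 172, 242, 199.95 and 200.3 in the healthy knock-in mice and 662, 683, 605 and 534 in the sick mice. The sick mice were close to each other and above every other mouse, with a log2 fold change of 1.94 ± 0.15 (adjusted p = 2.26e-06), the smallest standard error in the family. Col15a1 (chr4:47208161-47313167, plus strand), of the zone between basement membrane and fibrils, was at 42.6, 45.3, 30.9 and 34.4 CPM in the wild-type mice, 43.5, 88.2, 46.2 and 36.7 in the healthy knock-in mice and 378, 120.4, 102 and 274 in the sick mice, a log2 fold change of 2.51 ± 0.41 (adjusted p = 2.86e-04) with no overlap. Col15a1 lies 3.12 Mb from Gne on chromosome 4 and was not called in healthy knock-in against wild-type mice (0.49 ± 0.39, adjusted p = 0.912). Of the 2 collagens outside these classes, Col26a1 overlapped in all groups, at 1.63 to 6.63 CPM in wild-type and 4.52 to 9.59 in sick mice (log2 fold change 0.58 ± 0.42, adjusted p = 0.275). Col28a1, which was not tested, was at 0.243, 0.236, 0 and 0.196 CPM in the wild-type mice, 0.318, 0.157, 0.343 and 0.114 in the healthy knock-in mice and 1.66, 2.42, 0.384 and 2.21 in the sick mice, and the authors' deposited table calls it higher in sick mice in both comparisons.

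Since genes of this family differ in exon length, the order of their levels is given per kilobase of exon. In wild-type kidneys Col18a1 stood first, at 23.0 ± 2.80 CPM per kb (SD, n = 4), followed by Col14a1 at 13.7 ± 2.83, Col3a1 at 13.0 ± 4.06, Col6a6 at 9.39 ± 3.97, Col1a2 at 9.09 ± 2.22 and Col1a1 at 8.26 ± 3.74. Only Col18a1 lay apart from its neighbour in that order, and the next 5 were within their spread. In sick kidneys Col3a1 came first at 125 ± 52.9, followed by Col1a1 at 121 ± 50.3, Col1a2 at 89.9 ± 30.2 and Col18a1 at 88.5 ± 9.46, all 4 overlapping in their spread. Col6a6 was at 0.399 ± 0.186 CPM per kb there and Col14a1 at 24.2 ± 9.19. In healthy knock-in kidneys Col18a1 was first at 29.0 ± 4.07 and Col14a1 next at 15.2 ± 3.85, as in wild-type.

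Shares of the collagen counts by class, which are not adjusted for exon length, were compared by mouse. Fibrillar genes took 44.6% ± 4.55 (SD, n = 4) of all collagen counts in wild-type, 42.4% ± 6.51 in healthy knock-in and 62.0% ± 4.396 in sick mice. Beaded filament genes took 18.1% ± 2.86, 18.0% ± 5.21 and 10.4% ± 2.07 in the same order. The FACIT share was 13.6% ± 3.43, 13.0% ± 1.78 and 9.60% ± 2.26, the multiplexin share 21.1% ± 1.95, 23.3% ± 3.20 and 15.8% ± 2.92, the network share 1.28% ± 0.224, 2.12% ± 1.45 and 1.59% ± 0.413, and the transmembrane share 0.533% ± 0.113, 0.401% ± 0.0759 and 0.257% ± 0.106. In sick against wild-type mice the fibrillar share was higher by 17.4 percentage points and the beaded filament and transmembrane shares differed by -7.69 and -0.276, each with a two-sided exact permutation p of 0.0286, the smallest that 4 mice against 4 allow. Over the 24 classes and comparisons these became an adjusted p of 0.098, so no class share passed the threshold. Within the beaded filament class Col6a6 had the highest wild-type mean, 86.1 CPM, and fell to 3.66 in sick mice. Col6a1, Col6a2 and Col6a3 rose, from means of 28.2, 21.6 and 34.3 CPM to 265, 176 and 101. The share of this class without Col6a6 was not computed. With Col1a1, Col1a2 and Col3a1 left out, the fibrillar difference turned to -6.38 points, the multiplexin difference from -5.34 to 5.05 and the FACIT difference from -3.97 to 2.57, so the directions of these 3 classes rest on types I and III. Among the fibrillar genes left, Col27a1 had the highest wild-type mean, 91.5 CPM, and fell to 22.6 in sick mice. Col5a1 and Col5a2 rose from means of 18.5 and 13.5 CPM to 125 and 153, so the lower share does not mean that the remaining genes all fell. The share without Col27a1 was not computed. Per kilobase of exon the FACIT difference was -7.35 and the beaded filament difference -4.56.

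**Figure D4:**
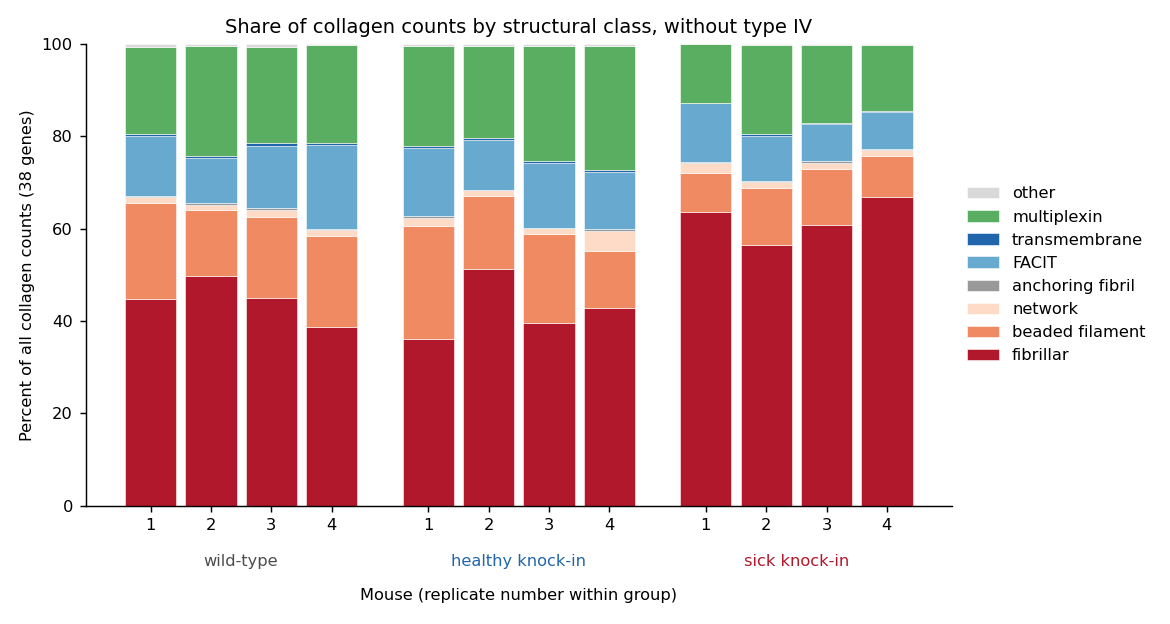
Stacked bars from 0 to 100% of the counts of all 38 collagens, by structural class, for each of the 12 mice. The fibrillar part runs from 38.7% to 49.8% in wild-type and from 56.6% to 66.97% in sick mice.

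Ratios within a mouse do not depend on how libraries are scaled, and 8 were computed. The count ratio of Col1a1 to Col1a2 was 0.547, 0.556, 0.403 and 0.341 in wild-type mice, 0.514, 0.582, 0.527 and 0.346 in healthy knock-in mice and 0.731, 0.605, 0.630 and 0.833 in sick mice. Every sick mouse lay above every other mouse, and the mean log2 ratio was higher than in wild-type mice by 0.62. The ratio of Col14a1 to Col1a1 was 1.58, 0.871, 2.54 and 3.66 in wild-type mice and 0.217, 0.254, 0.220 and 0.182 in sick mice, a log2 difference of -3.13. For Col6a3 against Col6a1 the values were 1.26, 0.841, 1.48 and 1.57 in wild-type mice and 0.369, 0.414, 0.241 and 0.532 in sick mice, a log2 difference of -1.74. Col3a1 to Col1a1 differed by -0.67 and the fibrillar sum to Col4a1 plus Col4a2, the ubiquitous basement membrane chains, by 1.29. None of these 5 ratios overlapped between sick mice and either other group. Each had an exact two-sided permutation p of 0.0286, the floor of the design, and an adjusted p of 0.0686 over 24 tests, so none passed. Col5a2 and Col12a1 against Col1a1, and Col15a1 against Col18a1, overlapped between all groups.

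**Figure D5:**
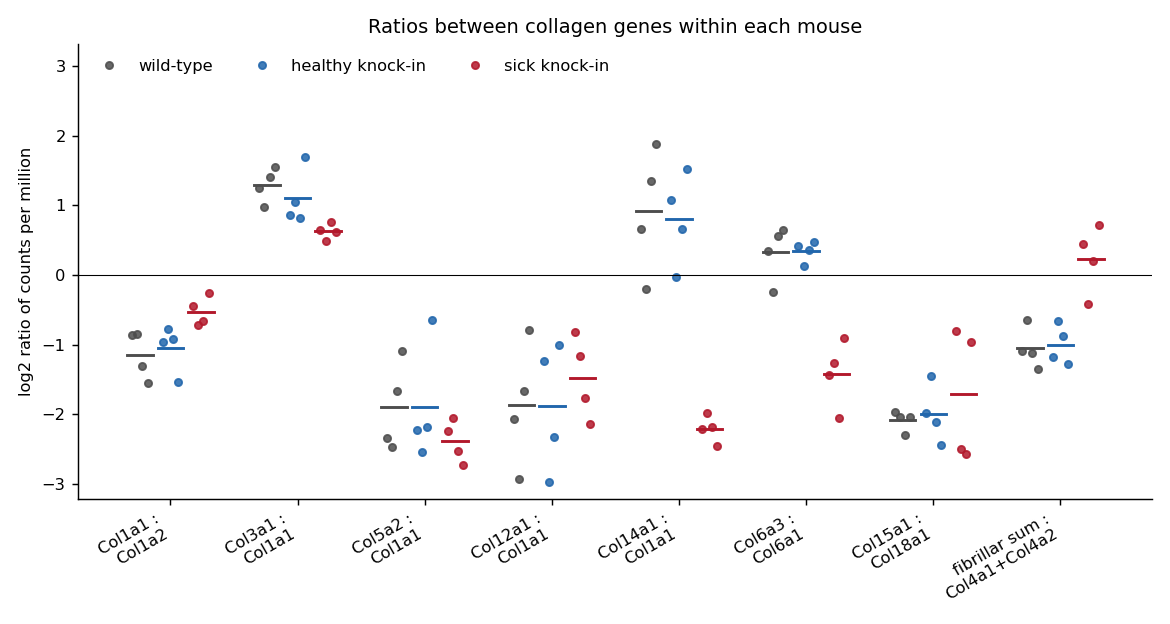
log2 ratios of CPM between pairs of collagen genes (or sums) in each mouse (points) with group means (bars), 4 mice a group. The sick mice lie apart from both other groups for 5 of the 8 ratios, furthest for Col14a1 to Col1a1, and overlap with them for the other 3.

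Healthy knock-in mice carry the same homozygous allele as the sick mice, and no collagen passed the test between them and wild-type mice, by edgeR (smallest adjusted p = 0.912) or by DESeq2, and 1 of 31 had an unadjusted p below 0.05, a share of 3.23% beside 4.49% of all genes. The log2 fold changes were above 0 for 24 of the 31 tested, with a median of 0.28 over all 38 genes with no filter. Col1a1 differed by 0.40 ± 0.48, Col3a1 by 0.22 ± 0.42 and Col6a1 by 0.59 ± 0.33 on the log2 scale. Mouse 2 had the highest level of its group for Col1a1, Col1a2, Col3a1, Col5a2, Col6a1, Col6a2, Col6a3, Col14a1, Col15a1 and Col18a1. Without it the fold changes of Col1a1, Col1a2 and Col3a1 turned to -0.18, -0.17 and -0.37. The 9 skeletal muscle markers were all called higher in healthy knock-in than in wild-type mice, a comparison that called 0.314% of all genes. Some of these markers, Myh1 and Myh2 among them, passed the low-count filter only through the healthy knock-in mice, so their calls were favoured by how they came to be tested. Myh2 was at 0 CPM in every wild-type mouse and at most 0.0514 in sick mice. The 9 markers summed to 214 to 348 CPM against 1.38 to 3.54 in wild-type and 1.70 to 14.5 in sick mice. Their part in the collagen values was not tested.

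The genes that make, bind and break collagen were counted in lists chosen by function. Of 35 genes for collagen processing and crosslinking 33 were tested, and 19 rose and 6 fell in sick against wild-type mice, where 25.9% of all genes tested were called higher and 25% lower, with a median log2 fold change of 0.61 beside 0.02 for all genes. Adamts2, which removes the amino-terminal propeptide of fibrillar procollagen, rose by 3.54 (adjusted p = 1.52e-05) on the log2 scale, from 8.77 ± 2.52 in wild-type to 102 ± 50.2 CPM in sick mice (SD, n = 4). Bmp1, which removes the carboxy-terminal propeptide, rose by 2.62 (adjusted p = 1.84e-06), and the crosslinking enzyme gene Lox by 4.44 (adjusted p = 5.16e-06). P4ha1, a catalytic subunit of prolyl 4-hydroxylase, fell, with a log2 fold change of -1.05 (adjusted p = 0.00388), and so did P3h2, a prolyl 3-hydroxylase listed in the table under its older symbol Leprel1, with -1.34 (adjusted p = 1.91e-05). Of 12 collagen receptors 10 were tested and 9 rose, with a median of 1.40. Gp6, which was not tested, was at 0.472 to 0.890 CPM in wild-type and 0 to 0.0514 in sick mice, with no overlap. Oscar, also not tested, was at most 0.206 CPM in any mouse. The collagen-binding integrin chain genes Itga2 and Itga11 rose by 3.33 (adjusted p = 3.48e-04) and 2.76 (adjusted p = 9.60e-04) from wild-type means of 0.349 and 0.274 CPM. Both passed the low-count filter only through the sick mice, so their calls were favoured by how they came to be tested. The fibrillar collagen receptor kinase gene Ddr2 rose by 2.22 (adjusted p = 2.52e-04).

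Among 19 proteoglycans and other partners of collagen 17 were tested, 13 rose and 1 fell, with a median of 1.55. Lum, the small leucine-rich proteoglycan lumican that regulates fibril diameter, rose by 3.85 (adjusted p = 5.32e-05), Tnc, the matricellular protein tenascin-C, by 4.39 (adjusted p = 6.36e-06), and Fbln1, the matrix glycoprotein fibulin-1, by 3.60 (adjusted p = 1.38e-05). Podn, a relative of lumican, fell, with -0.48 (adjusted p = 0.0367). Of 11 collagen-degrading enzymes 9 were tested, 5 rose and 1 fell, with a median of 1.16, beside the same 25.9% and 25% of all genes. Mmp14 and the gelatinase gene Mmp2 rose by 3.57 (adjusted p = 1.87e-06) and 3.43 (adjusted p = 3.05e-06). Mmp8, a collagenase of neutrophils, was called higher at very low levels, 0.0582 ± 0.0398 CPM in wild-type and 0.575 ± 0.268 in sick mice (adjusted p = 0.0435). It would not have passed the low-count filter without the sick mice, so its call was favoured by how it came to be tested. Healthy knock-in mouse 4, at 2.16 CPM, lay above every sick mouse, at 0.307 to 0.930, and the log2 fold change against healthy knock-in mice was -0.05. Mmp13, the main rodent interstitial collagenase, fell, with -2.52 (adjusted p = 0.00128). Mmp1a and Mmp1b had no counts in wild-type and sick mice. Of the 6 type IV chains 2 rose and 2 fell, shares near those of all genes, with a median of 0.16. Col4a1 and Col4a2, the ubiquitous chains, rose by 1.62 (adjusted p = 1.08e-04) and 1.84 (adjusted p = 7.09e-05), and Col4a3 and Col4a4, chains of the glomerular basement membrane, fell, with -1.35 (adjusted p = 0.00292) and -1.58 (adjusted p = 1.88e-05). No gene of these 5 lists was called in healthy knock-in against wild-type mice, a comparison that called 0.314% of all genes. Lum, Fbln1 and other genes of these lists are also among the fibroblast markers above.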

How the data were processed

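RNA-seq counts per gene of 12 mouse kidneys (4 wild-type, 4 healthy and 4 sick GNE knock-in mice) were analysed from the counts the authors deposited. The submitters' processing notes name Trim Galore 0.3.7, TopHat2 2.0.11, Cufflinks, DESeq2 1.12.4 and the genome build GRCm38. How reads were counted, and whether by strand, the sources used here do not give, and exons shared with another gene made up at most 6.07% of a collagen's exon bases. Fold changes and adjusted p-values in the authors' deposited table, whose scale is per the file headers log2, are quoted only where named.

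The raw counts of all 12 libraries were fitted in edgeR 4.0.16 (quasi-likelihood F test, TMM scaling, filterByExpr by group, a common coefficient of variation of 0.27), with Benjamini-Hochberg adjustment over 15589 genes and a threshold of 0.05. TMM factors were 0.804 to 0.933 in the wild-type and healthy knock-in mice and 1.23 to 1.39 in the sick mice. No libraries held identical values. Rows with no gene symbol, 0.0139% of counts, stayed in as gene rows. The SE given with a log2 fold change is the size of that fold change divided by the square root of its F statistic. Class shares and ratios were compared by exact two-sided permutation over mice. DESeq2 1.42.0, other scalings, filters, left-out mice and the replicate block were alternatives. Coordinates and exon lengths are from GENCODE M21.

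Values by mouse are given for the 12 collagens with the highest mean CPM, those that fell in any comparison, and the 6 with the largest rise in sick against wild-type mice; in the other lists the 3 with the largest change and up to 2 in the other direction were named. The members and lists were chosen with earlier results of these data known.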

Additional observations from a re-analysis of the deposited data

Results flagged for a closer look

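Among 141 sets of 4 mice (the collagens and class shares in each group) 9 held a mouse whose gap to the nearest other exceeded Dixon's critical value, and chance gives about 1 in 20. Healthy knock-in mouse 2 stood out for Col3a1, at 299 CPM, and for Col11a1, at 5.56 CPM. Wild-type mouse 2 stood out for Col11a1, at 4.48 CPM. Sick mouse 1 stood out for Col12a1, at 687 CPM, for Col9a3, at 0.892 CPM, and for a low transmembrane share of 0.0996% of collagen counts, beside 0.299% to 0.324% in the other sick mice. Healthy knock-in mouse 3 was low for Col5a3, at 3.15 CPM. Wild-type mouse 1 was the single wild-type mouse with Col9a3 counts, at 0.162 CPM, and was low for Col17a1, at 0.0809 CPM. The latter and the Col9a3 values rest on very few counts.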

How the results depend on the processing

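The counts of collagens called higher or lower moved by less than 1.5 times under every alternative run: other scalings (DESeq2 size factors, upper quartile, library totals alone), no filter or a minimum of 1 CPM in 4 libraries, DESeq2's Wald test, a test against a log2 fold change of 0.5, the 8 libraries of a comparison alone, each mouse left out, and, chosen after seeing the data, wild-type and healthy knock-in mice 2 left out together. In sick against wild-type mice they ran from 20 to 26 higher, with 3 lower throughout, in sick against healthy knock-in mice from 20 to 26 higher and 3 to 4 lower, and healthy knock-in mice gave 0 throughout. With the replicate number as a block there were 23 higher and 3 lower in sick against wild-type mice, 0 called in healthy knock-in against wild-type, and 22 higher and 4 lower in sick against healthy knock-in mice, where Col23a1 lost its call (adjusted p = 0.0665). The labels do not say that a number marks a shared litter or batch, same-numbered mice correlated at -0.26 to 0.24, and not every mouse correlated best with its own number, so the mice were not treated as paired.

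Class shares depended on the abundant chains. Without Col1a1, Col1a2 and Col3a1 the difference in share, in percentage points, was -6.38 for fibrillar, 1.82 for network, 2.57 for FACIT, 0.0329 for anchoring fibril, 5.05 for multiplexin and -2.55 for beaded filament genes in sick against wild-type mice. Against healthy knock-in mice it was -4.36 for fibrillar, 0.753 for network, 3.40 for FACIT, 0.0147 for transmembrane and 2.62 for multiplexin genes. Per kilobase of exon the FACIT difference was -7.35 and -6.41 in these comparisons and the transmembrane difference -0.409 against wild-type.

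In healthy knock-in against wild-type mice, where no collagen was called, leaving out 1 mouse at a time turned the sign of some log2 fold changes, which ran from -0.176 to 0.680 for Col1a1, -0.166 to 0.477 for Col1a2, -0.367 to 0.412 for Col3a1, -0.00379 to 0.287 for Col14a1, -0.438 to 0.270 for Col27a1 and -0.747 to 0.0508 for Col6a6. With both second mice left out Col1a2, Col3a1 and Col14a1 were at -0.0359, -0.258 and -0.135. Col6a5, not called, ran from -0.331 to 0.441 in sick against healthy knock-in mice. The cause of these changes was not tested. Genes below about 0.5 CPM rest on a handful of counts a mouse, and 4 mice against 4 give no permutation p below 0.0286.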

Other observations

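The 7 collagens that were not tested were present at low levels in whole kidney. Col25a1, a transmembrane collagen known from neurons, was at 0.118 to 0.780 CPM in wild-type, 0.170 to 0.315 in healthy knock-in and 0.153 to 0.257 in sick mice. Col22a1, a FACIT of tissue junctions such as that of muscle and tendon, was at 0.0867 to 0.589, 0.172 to 0.508 and 0 to 0.405 CPM. It overlapped between all groups, including the healthy knock-in mice, in which all 9 skeletal muscle markers were higher. The cartilage collagen Col2a1 was at most 0.307 CPM in any mouse, and the type IX chains Col9a1 and Col9a2 at most 0.154 and 0.206 CPM. Healthy knock-in mouse 3, with the 81 counts of Col6a4, also had the highest summed urothelial markers outside the sick group, at 61.7 CPM. Of 36 collagens with an adjusted p in the authors' deposited table, it called 21 higher and 3 lower in sick against wild-type mice. Against healthy knock-in mice it called 18 higher and 3 lower of 36, and between the healthy groups 0 of 37. The share of all genes called in that table was not counted, so these calls have no background beside them. Both sets of higher calls include Col28a1. Of the collagens called by edgeR, that table did not call Col11a1, Col13a1 and Col14a1 against wild-type mice. Against healthy knock-in mice it did not call Col11a1, Col11a2, Col24a1, Col6a3, Col9a3, Col13a1 and Col23a1.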
